A study of Homo sapiens with 22 samples.

Results

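The transcripts of 45 genes of glucose uptake, glycolysis, lactate handling and the hypoxia response were followed in H1299, a line derived from a human non-small cell lung cancer. The 45 genes were taken from a list of symbols grouped by function, with no threshold on measured values, and all 45 were found among the 37908 genes of the count table. H1299 cells carried a doxycycline (DOX)-inducible short hairpin RNA against BRCA2. The terms BRCA2-proficient and BRCA2-deficient refer to cultures without DOX and with 3 days of DOX at 2 µg/mL. Each culture received control siRNA or siRNA against β-catenin (siβ-catenin) and then either no inhibitor or 250 nM LY2090314, an inhibitor of glycogen synthase kinase 3 (GSK3i), for 24 h. The 8 resulting groups were untreated (control siRNA, no inhibitor), GSK3i, siβ-catenin and GSK3i with siβ-catenin, in each BRCA2 background. There were 3 libraries in every group except BRCA2-proficient untreated and BRCA2-proficient siβ-catenin cells, which had 2 each, labelled replicates 2 and 3. All 8 groups carried the hairpin and were transfected, no DOX-treated line without it was among the samples, and DOX and BRCA2 depletion cannot be told apart.

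Glycolysis splits glucose into pyruvate: transporters and hexokinases bring in and trap the sugar, a chain of enzymes processes it, and lactate dehydrogenases with monocarboxylate transporters export the product as lactate. Many of these genes, along with VEGFA and other secreted factors, are transcribed through hypoxia-inducible factors (HIFs), heterodimers of an oxygen-sensitive α subunit (HIF1A or EPAS1) and ARNT that bind a short core sequence, ACGTG or GCGTG, in hypoxia response elements. Prolyl hydroxylases of the EGLN family mark the α subunits for degradation when oxygen is present. GSK3 phosphorylates β-catenin for degradation, and β-catenin activates genes such as AXIN2.

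The HIF core sequence is shown in 6 promoters, those of PGK1, LDHA, HK2 and GPI in the glycolytic chain, of the α subunit EPAS1 and of the mitophagy gene BNIP3. Each run covers 220 to 21 bases before a RefSeq transcription start on GRCh38.p14, 5′ to 3′ along the gene, and capitals mark the core, ACGTG or GCGTG, on either strand, with overlapping matches in 1 run.
PGK1, chrX:78104028-78104227, plus strand: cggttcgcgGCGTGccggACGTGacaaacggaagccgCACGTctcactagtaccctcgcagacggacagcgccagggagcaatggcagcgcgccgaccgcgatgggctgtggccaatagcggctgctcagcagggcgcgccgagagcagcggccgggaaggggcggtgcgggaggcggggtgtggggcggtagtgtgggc
LDHA, chr11:18394343-18394542, plus strand: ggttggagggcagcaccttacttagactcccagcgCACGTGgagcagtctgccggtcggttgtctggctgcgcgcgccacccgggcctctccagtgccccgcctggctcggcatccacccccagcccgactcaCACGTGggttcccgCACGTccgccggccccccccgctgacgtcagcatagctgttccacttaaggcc
GPI, chr19:34364772-34364971, plus strand: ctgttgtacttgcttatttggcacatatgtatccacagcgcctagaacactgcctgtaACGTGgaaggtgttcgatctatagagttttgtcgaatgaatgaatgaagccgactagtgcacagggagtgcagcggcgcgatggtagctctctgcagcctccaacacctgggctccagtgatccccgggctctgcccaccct
HK2, chr2:74833907-74834106, plus strand: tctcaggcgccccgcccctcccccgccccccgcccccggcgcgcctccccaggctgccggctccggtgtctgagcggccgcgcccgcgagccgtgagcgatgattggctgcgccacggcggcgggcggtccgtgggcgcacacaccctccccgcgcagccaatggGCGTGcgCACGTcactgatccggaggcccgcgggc
EPAS1, chr2:46297187-46297386, plus strand: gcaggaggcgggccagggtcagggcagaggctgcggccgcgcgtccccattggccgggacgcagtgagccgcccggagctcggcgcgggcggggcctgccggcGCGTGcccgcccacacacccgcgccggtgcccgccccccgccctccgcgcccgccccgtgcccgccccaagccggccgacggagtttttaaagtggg
BNIP3, chr10:131981944-131982143, minus strand: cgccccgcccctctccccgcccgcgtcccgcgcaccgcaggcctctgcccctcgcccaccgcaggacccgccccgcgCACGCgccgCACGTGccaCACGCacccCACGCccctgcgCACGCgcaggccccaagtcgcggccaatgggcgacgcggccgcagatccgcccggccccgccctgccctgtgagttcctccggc
LDHA held 5 matches at 185, 184, 87, 86 and 73 bases before the start, those a base apart being overlapping matches on opposite strands. PGK1 held 3 matches at 211, 202 and 183 bases, BNIP3 held 6 between 143 and 104 bases, HK2 held 2 at 55 and 48 bases, and GPI and EPAS1 held 1 each at 162 and 117 bases. In windows from 250 bases before to 50 after the start, promoters were matched for 38 of the 45 genes; 23 of these (60.5%) held ACGTG on either strand, against 24.9% of 27305 genes with a window. GCGTG was found in 23 of 38 (60.5%) against 40.6%. A gene counted if any of its windows matched, and the 38 genes had 66 windows against 35116 for the 27305 genes. Per window, ACGTG was in 40.9% against 21.4%, and GCGTG in 42.4% against 36.5%. A match is a description of the letters and does not show that a factor bound there.

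Libraries held 18.9 to 29.3 M counts, of which the 45 genes took 1.22 to 1.67%. The targeted genes followed their labels: BRCA2 had 514 to 1111 normalised read counts without DOX and 71.4 to 225 with it, CTNNB1 (β-catenin) 5206 to 8669 with control siRNA and 977 to 2217 with siβ-catenin, and AXIN2 1027 to 1747 with GSK3i and control siRNA against 59.5 to 82.4 in untreated cells. Epithelial keratins KRT8 and KRT18 and the mesenchymal filament VIM were abundant in every library (at least 2037 counts), and the leukocyte gene PTPRC had at most 1.57. KRT8 was lower with GSK3i in both backgrounds (log2 fold changes of -1.15 and -1.31), and the part of this in the results was not tested. Among the BRCA2-proficient libraries with siβ-catenin, 2 went against their GSK3i label. PDCD4, chosen with YPEL2 and ABTB1 after the values were seen, had 105 to 163 counts in the other libraries with GSK3i and 1291 to 1920 in those without it. PDCD4 had 1998 counts in replicate 2 labelled GSK3i with siβ-catenin and 291 in replicate 2 labelled siβ-catenin, while siβ-catenin replicate 3 lay between the ranges at 1056. YPEL2 and ABTB1 placed the same 3 libraries in the same way. Comparisons that use these libraries are therefore given as labelled and, where possible, without the library.

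Levels were compared between genes per kilobase of exon. In untreated BRCA2-proficient cells the mean level was 22289 normalised counts per kb for GAPDH, 14327 for ENO1, 7800.1 for LDHB, 6279.5 for TPI1 and 5092 for ALDOA, whereas the regulatory kinase PDK3 had 5.76 and the brain-type aldolase ALDOC 6.35. Among the HIF subunits HIF1A stood at 1594 per kb and EPAS1 at 195. A group of HIF targets commonly used to mark hypoxia were at or near 0: CA9 gave 25 raw counts in all 22 libraries together, NDRG1 15 and CA12 5, with no more than 5, 3 and 2 in any one library. These 3 were too low to test, so 42 of the 45 genes entered the main fits. A library's limit for a count of 0 (3 counts) was 0.102 to 0.158 CPM, for counting error only.

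GSK3 inhibition moved the set in both directions. In BRCA2-proficient cells 5 genes rose and 5 fell. HK2, GPI, PGAM1, SLC16A1 and EGLN3 were higher, and PFKL, SLC16A3, EPAS1, BNIP3L and KDM3A lower. In BRCA2-deficient cells 8 rose (HK1, HK2, GPI, PFKP, ENO2, SLC16A1, VEGFA and HILPDA) and 3 fell (SLC16A3, EPAS1 and BNIP3L). A call required a DESeq2 adjusted p (Benjamini-Hochberg over all genes tested) under 0.05 and an absolute log2 fold change over 0.5. Of all genes tested, 11.8% were called higher and 14.2% lower in BRCA2-proficient cells, and 11.6% and 13.8% in BRCA2-deficient cells. Read against these, 5 of 42 in each direction was near the background in BRCA2-proficient cells, and 8 higher was above and 3 lower below it in BRCA2-deficient cells, a difference that was not tested. The median log2 fold change was 0.10 over the 42 genes against -0.0021 over all genes in BRCA2-proficient cells, and 0.20 against 0.025 in BRCA2-deficient cells. Calls of the same direction in either background were shared by 6 genes, HK2, GPI, SLC16A1, SLC16A3, EPAS1 and BNIP3L. The p-values measure the spread between the libraries of a group. As these are bulk samples, less RNA per cell and fewer cells with the RNA cannot be told apart.

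**Figure D1:**
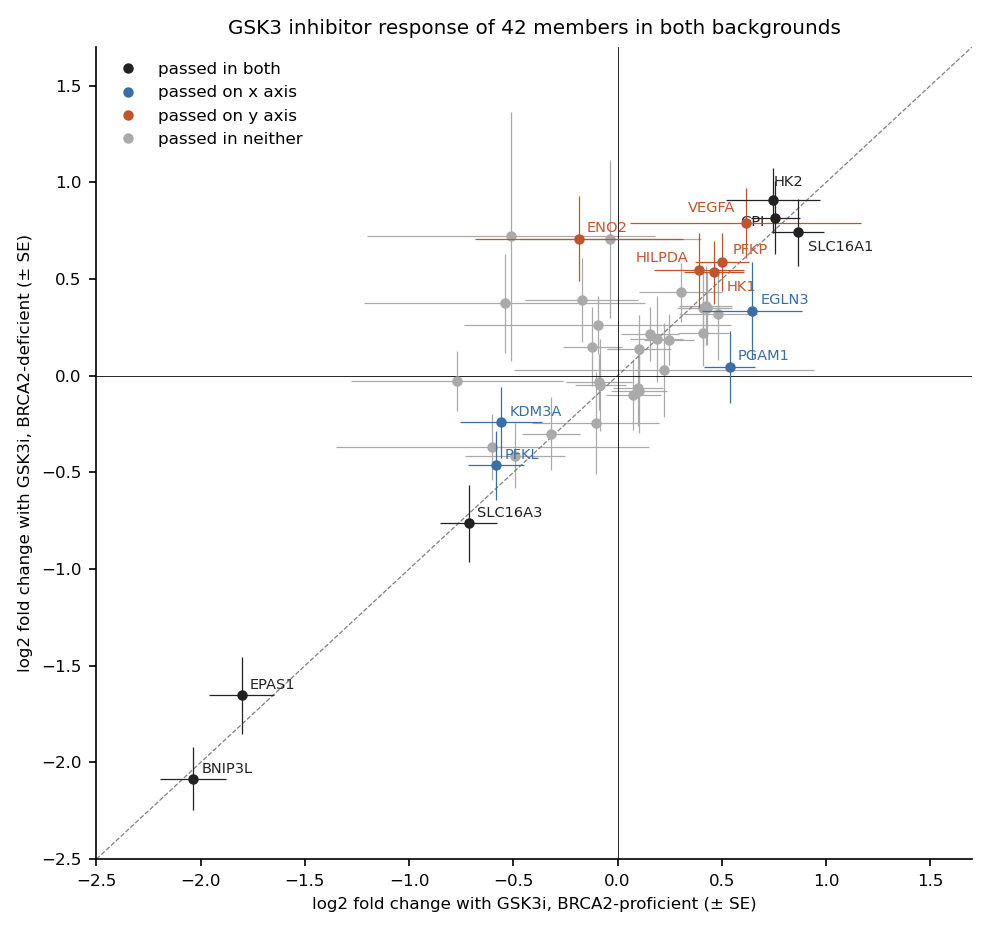
Log2 fold change with GSK3i against untreated cells, control siRNA, in BRCA2-proficient (x axis) and BRCA2-deficient (y axis) cells for 42 genes, with standard errors; colours give where the gene passed the test and the dashed line marks equal values. BNIP3L and EPAS1 lie far below 0 in both, SLC16A3 less far, and HK2, GPI and SLC16A1 lie between 0.74 and 0.91 in both.

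At the entry of the pathway, hexokinase HK2 (ENSG00000159399, GRCh37 chr2:75061254-75120486, plus strand) had 1414 and 2777 normalised counts in untreated BRCA2-proficient libraries and 3027, 3468 and 4173 with GSK3i. In BRCA2-deficient cells it had 1018, 1196 and 1327 counts untreated and 2051, 2195 and 2399 with GSK3i. The groups did not overlap in either background. The log2 fold change of HK2 was 0.75 ± 0.22 (SE; adjusted p = 0.00423, DESeq2) and 0.91 ± 0.17 (adjusted p = 1.17e-06, DESeq2). In BRCA2-proficient cells the HK2 call was lost in 5 of 10 alternatives, with 0.35 (adjusted p = 0.275, DESeq2) without untreated replicate 2 and 1.32 without untreated replicate 3; in BRCA2-deficient cells it held in all 11. The main glucose carrier SLC2A1 (ENSG00000117394, chr1:43391024-43424564, minus strand) had 3017 and 3801 counts untreated and 3107 to 3248 with GSK3i in BRCA2-proficient cells, and 1837 to 2596 against 2150 to 2997 in BRCA2-deficient cells. Its log2 fold changes of -0.12 ± 0.14 and 0.15 ± 0.20 did not pass, with 95% intervals of -0.39 to 0.15 and -0.25 to 0.55. The ubiquitous hexokinase HK1 was 0.46 ± 0.14 and 0.53 ± 0.16 on the log2 scale, past both criteria in BRCA2-deficient cells, a call lost in 2 of 11 alternatives.

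In the upper chain, glucose-6-phosphate isomerase GPI (ENSG00000105220, chr19:34850385-34893318, plus strand) had 10154 and 10522 counts in untreated BRCA2-proficient cells and 17158, 17270 and 18523 with GSK3i. In BRCA2-deficient cells it had 8380, 9135 and 10875 counts untreated and 14395, 15746 and 19894 with GSK3i. Every GSK3i library was above every untreated library of its background. The log2 fold changes were 0.76 ± 0.12 (adjusted p = 2.48e-09, DESeq2) and 0.82 ± 0.19 (adjusted p = 0.000161, DESeq2), and the call held in all alternatives run. The phosphofructokinases, which catalyse the committed step, went apart. The platelet-type PFKP had log2 fold changes of 0.50 ± 0.13 and 0.59 ± 0.15, the liver-type PFKL -0.58 ± 0.13 and -0.46 ± 0.18, and the muscle-type PFKM 0.25 ± 0.12 and 0.19 ± 0.13. PFKP passed both criteria in BRCA2-deficient cells (lost in 1 of 11 alternatives), its value in BRCA2-proficient cells lying just under the size criterion, and PFKL in BRCA2-proficient cells. PFKFB3 and PFKFB4, which make the activator fructose 2,6-bisphosphate, and aldolases ALDOA and ALDOC passed in neither background, and the isomerase TPI1, at 0.41 ± 0.12 and 0.35 ± 0.20, did not either.

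Of the lower chain, GAPDH (ENSG00000111640, chr12:6643678-6647540, plus strand) had 50924 and 55887 counts untreated and 55216, 57648 and 60408 with GSK3i in BRCA2-proficient cells, and 45130, 53491 and 61730 against 44810, 46472 and 62400 in BRCA2-deficient cells. The ranges overlapped in both backgrounds, with log2 fold changes of 0.10 ± 0.12 and -0.06 ± 0.20 (95% intervals -0.14 to 0.33 and -0.45 to 0.33). Phosphoglycerate kinase PGK1 (ENSG00000102144, chrX:77166236-77384792, plus strand) had 16038 and 17320 counts untreated and 20884, 22734 and 23670 with GSK3i in BRCA2-proficient cells. It had 14484, 17291 and 17324 against 17451, 17585 and 22227 in BRCA2-deficient cells. No GSK3i library of PGK1 fell below an untreated one, but its log2 fold changes of 0.41 ± 0.12 and 0.22 ± 0.17 were under the size criterion. The mutase PGAM1 rose by 0.54 ± 0.12 in BRCA2-proficient cells (adjusted p = 8.15e-05, DESeq2) and had 0.05 ± 0.19 in BRCA2-deficient cells. Its BRCA2-proficient call was lost in 1 of 10 alternatives, at 0.46 without untreated replicate 3, which leaves 1 untreated library. The neuronal enolase ENO2 rose in BRCA2-deficient cells (832, 1047 and 1347 counts untreated, 1567, 1664 and 2047 with GSK3i; log2 fold change 0.71 ± 0.22, adjusted p = 0.00708, DESeq2). This call was lost without untreated replicate 2 (0.55, adjusted p = 0.0865, DESeq2) and in 1 model over all groups (adjusted p = 0.0508, DESeq2). The main enolase ENO1 and pyruvate kinase PKM had absolute log2 fold changes of at most 0.10 in both backgrounds.

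The lactate exporters moved apart. SLC16A1 (ENSG00000155380, chr1:113454469-113500215, minus strand), which encodes monocarboxylate transporter MCT1, had 1669 and 1751 counts untreated and 3077, 3128 and 3230 with GSK3i in BRCA2-proficient cells. With BRCA2 depleted, it had 1488, 1949 and 1961 counts untreated and 2803, 2932 and 3303 with GSK3i. SLC16A3 (ENSG00000141526, chr17:80175810-80219005, plus strand), which encodes MCT4 and is the carrier usually tied to glycolytic cells, went down from 5439 and 6474 counts to 3397, 3647 and 3959, and from 5162, 6134 and 7331 to 3282, 3372 and 4330. Neither gene's groups overlapped in either background. SLC16A1 rose by 0.86 ± 0.12 (adjusted p = 1.34e-10, DESeq2) and 0.74 ± 0.17 (adjusted p = 0.00019, DESeq2) on the log2 scale. SLC16A3 fell by 0.71 ± 0.14 (adjusted p = 2.74e-06, DESeq2) and 0.76 ± 0.20 (adjusted p = 0.000899, DESeq2). All 4 calls held in all alternatives run. SLC16A3 shares 482 bases of exon with CSNK1D on the opposite strand, and the strand setting of the counting is not stated; CSNK1D had log2 fold changes of -0.06 and -0.01. Lactate dehydrogenase LDHA (ENSG00000134333, chr11:18416107-18429972, plus strand) had 18037 and 19389 counts against 23986, 26171 and 26302 with GSK3i in BRCA2-proficient cells, without overlap, and 14101, 16849 and 17857 against 17304, 20026 and 24840 in BRCA2-deficient cells, with overlap. Its log2 fold changes of 0.43 ± 0.12 and 0.35 ± 0.19 stayed under the size criterion, as did 0.42 ± 0.13 and 0.36 ± 0.20 for LDHB. PDK1 and PDK3, kinases that keep pyruvate out of the mitochondrial dehydrogenase, passed in neither background.

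The α subunits differed. HIF1A (ENSG00000100644, chr14:62162231-62214977, plus strand) had 7857 and 8560 counts untreated and 7361, 7969 and 8168 with GSK3i in BRCA2-proficient cells, and 5844, 7774 and 9034 against 5439, 7547 and 8948 in BRCA2-deficient cells. Its ranges overlapped, and its log2 fold changes were -0.08 ± 0.12 and -0.05 ± 0.24 (95% intervals -0.32 to 0.16 and -0.51 to 0.42). EPAS1 (HIF-2α; ENSG00000116016, chr2:46520806-46613836, plus strand) went from 1362 and 1485 counts to 370, 420 and 446 in BRCA2-proficient cells, and from 1591, 2027 and 2346 to 573, 609 and 716 in BRCA2-deficient cells. With GSK3i it stood at 0.29 and 0.32 times the untreated level. The log2 fold changes of EPAS1 were -1.80 ± 0.16 (adjusted p = 1.55e-28, DESeq2) and -1.65 ± 0.20 (adjusted p = 9.17e-15, DESeq2). ARNT was at -0.32 ± 0.14 and -0.30 ± 0.19 and did not pass. The prolyl hydroxylase EGLN3 passed in BRCA2-proficient cells (0.65 ± 0.24, adjusted p = 0.0236, DESeq2) but lost the call in 5 of 10 alternatives, and EGLN1 was within 0.09 of 0 in both backgrounds.

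Both mitophagy receptors are HIF targets, and one of them showed the largest change of the set. BNIP3L (ENSG00000104765, chr8:26240570-26363152, plus strand), also called NIX, had 2993 and 3154 counts untreated and 647, 727 and 896 with GSK3i in BRCA2-proficient cells, and 2491, 2629 and 3063 against 608, 610 and 713 in BRCA2-deficient cells. Its log2 fold changes were -2.04 ± 0.16 (adjusted p = 1.55e-35, DESeq2) and -2.09 ± 0.16 (adjusted p = 2.5e-34, DESeq2), 0.24 times the untreated level in each. BNIP3 itself was at 0.30 ± 0.20 and 0.43 ± 0.15 and was not called. BNIP3L shares 330 bases of exon with PNMA2 on the opposite strand, which had log2 fold changes of -0.95 and -0.87, so reads in the overlap cannot be assigned with certainty; PNMA2 held 59.8% as many counts as BNIP3L over all libraries. BNIP3 has 27 pseudogenes in the table, with 2.86% of its counts.

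**Figure D2:**
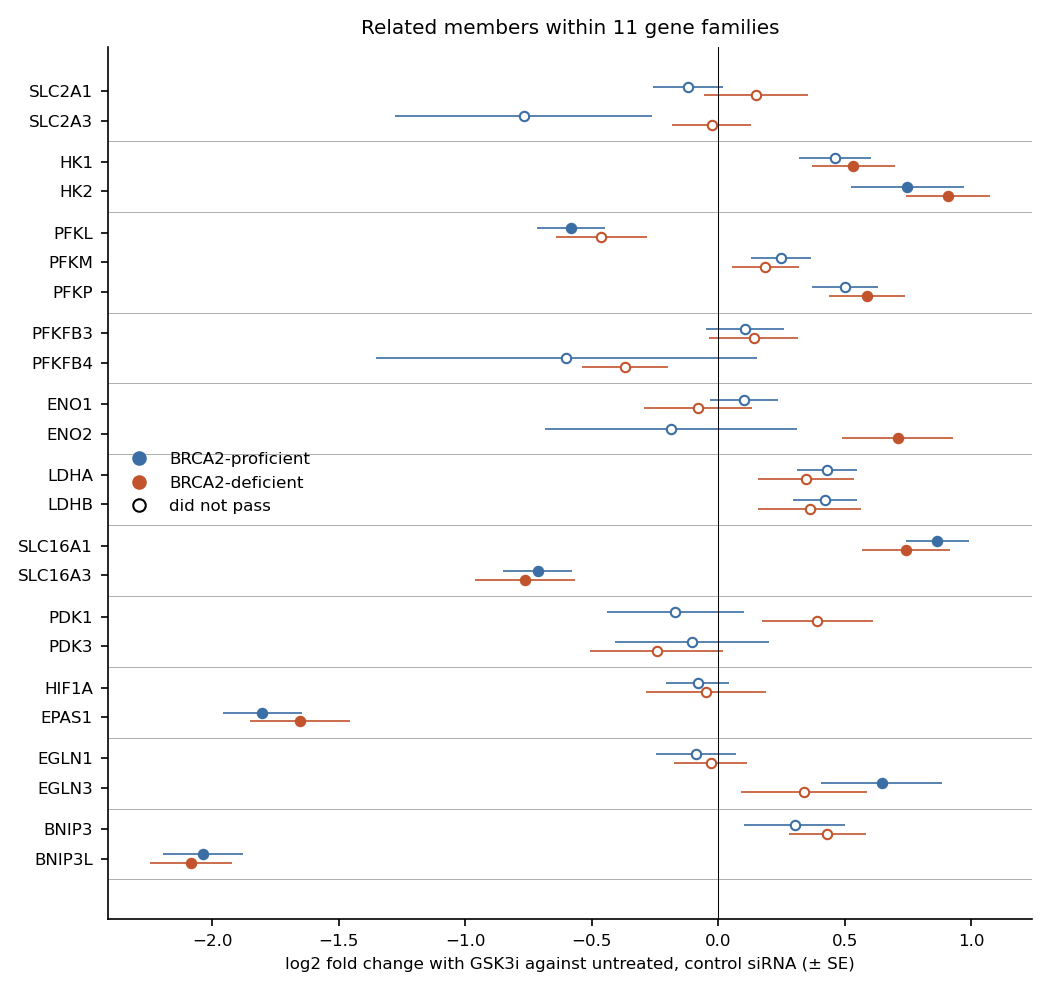
Log2 fold change with GSK3i (x axis, with standard errors) of related genes in 11 families, in BRCA2-proficient and BRCA2-deficient cells; filled points passed both criteria. SLC16A1 and SLC16A3 lie on opposite sides of 0 in both backgrounds, EPAS1 lies near -1.7 with HIF1A at 0, and BNIP3L lies near -2 with BNIP3 above 0.

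Among the secreted HIF targets, the angiogenic factor VEGFA (ENSG00000112715, chr6:43737921-43754224, plus strand) rose in BRCA2-deficient cells, from 626, 785 and 864 counts to 1227, 1290 and 1426 (log2 fold change 0.79 ± 0.18, adjusted p = 0.000142, DESeq2). In BRCA2-proficient cells it had 678 and 1841 counts untreated and 1713, 1725 and 2413 with GSK3i, and the untreated range reached into the GSK3i range (0.61 ± 0.55, adjusted p = 0.416, DESeq2). The vasodilator ADM, the lipase inhibitor ANGPTL4 and STC1 had log2 fold changes between -0.54 and 0.48 in both backgrounds and were not called. Of the other HIF targets, the lipid-droplet gene HILPDA rose in BRCA2-deficient cells by 0.54 ± 0.19 (adjusted p = 0.0199, DESeq2), a call lost in 6 of 11 alternatives. The histone demethylase KDM3A was lower in BRCA2-proficient cells (-0.56 ± 0.20, adjusted p = 0.0176, DESeq2), without untreated replicate 3 at -0.22 (adjusted p = 0.576). ANKRD37, P4HA1, ERO1A and BHLHE40 passed in neither background; ANKRD37 shares 909 bases of exon with the more highly counted UFSP2 on the opposite strand.

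**Figure D3:**
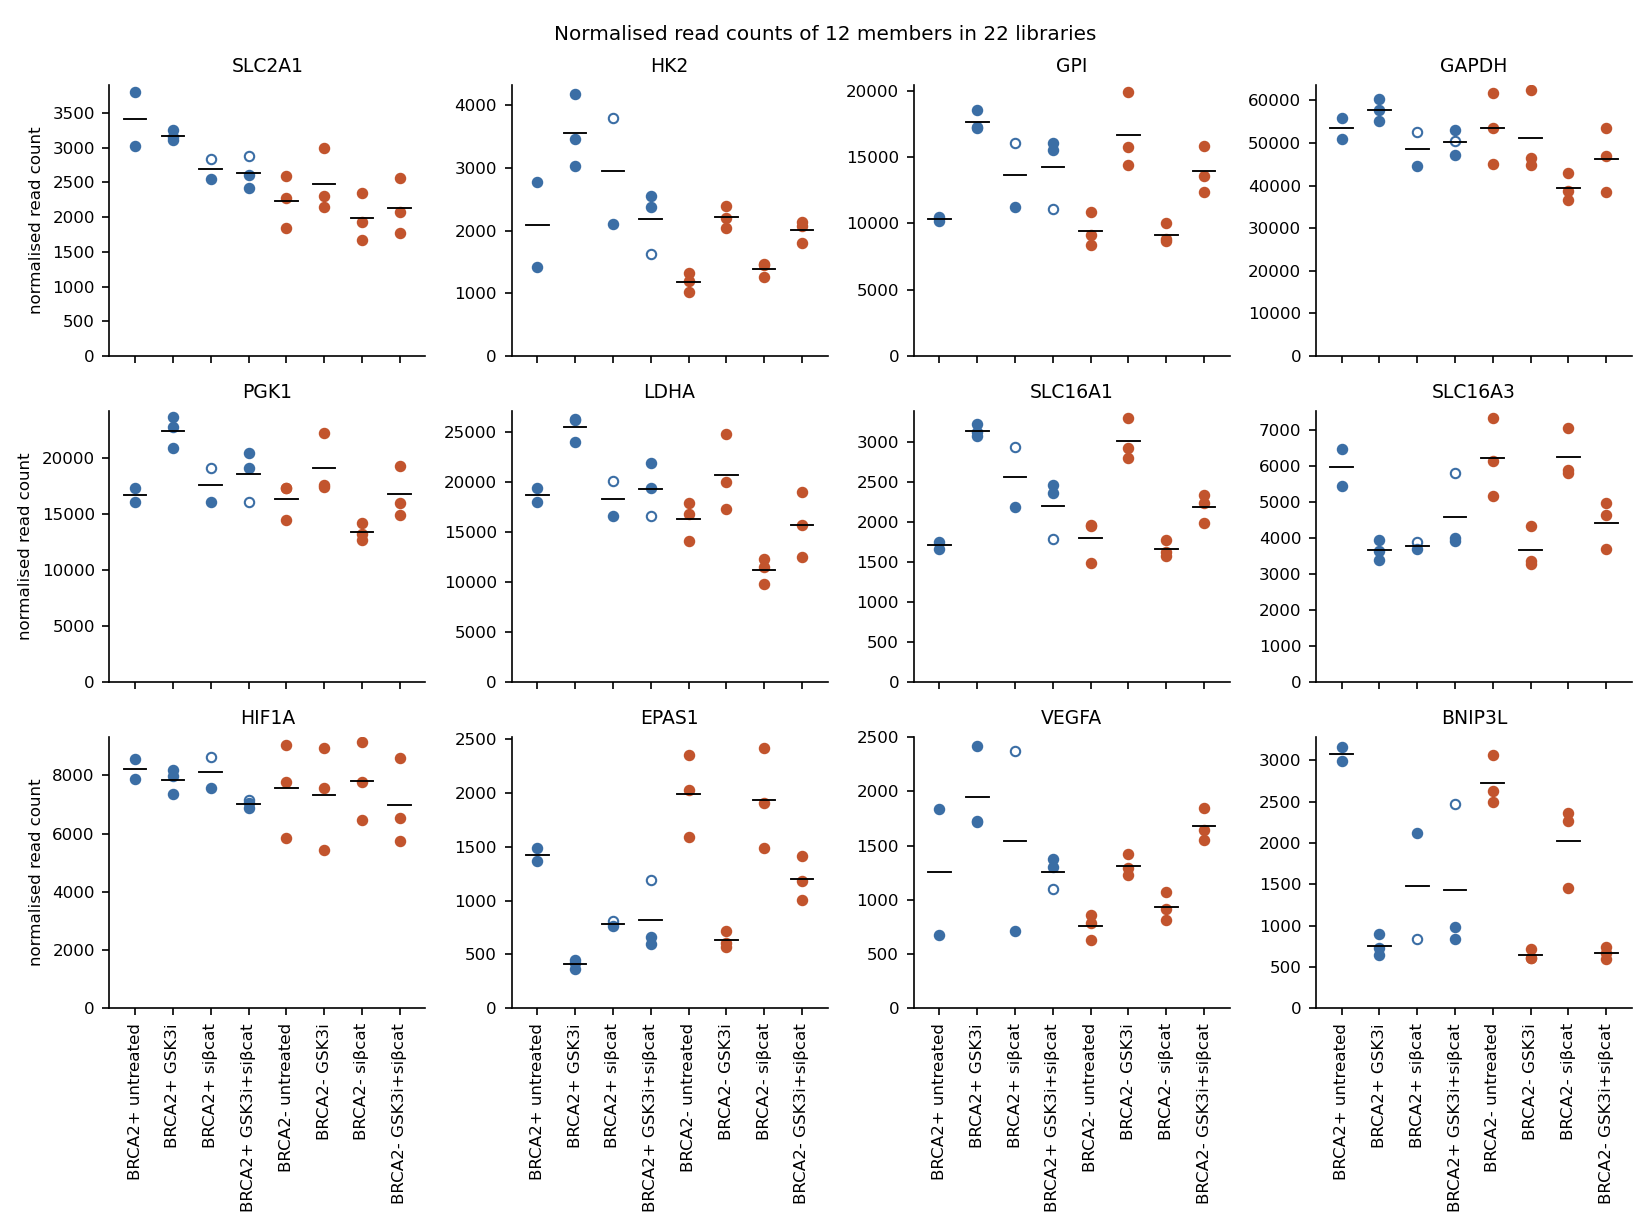
Normalised read counts (y axes, each from 0) of 12 genes in the 22 libraries by group (x axis), BRCA2-proficient (BRCA2+) in blue and BRCA2-deficient (BRCA2-) in red; points are libraries, bars are group means, and open points are the 2 replicate 2 libraries with siβ-catenin that went against their GSK3i label. EPAS1 and BNIP3L drop with GSK3i in both backgrounds, HIF1A and GAPDH stay in overlapping ranges, and the open points of BNIP3L lie on the other side from the libraries they are labelled with.

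The GSK3i responses of the 2 backgrounds were compared directly by the interaction of BRCA2 status and GSK3i. None of the 42 genes was called by DESeq2 (0.0345% of all genes were) or by edgeR. At an unadjusted p under 0.05, DESeq2 gave 2 genes of the set, PGAM1 and ENO2, and 558 of all 17381 genes. With edgeR it was 1 gene of the set and 610 of all 17381. The differences (BRCA2-deficient minus BRCA2-proficient) were 0.14 ± 0.25 for EPAS1, -0.06 ± 0.22 for BNIP3L, 0.04 ± 0.22 for GPI, -0.14 ± 0.20 for SLC16A1 and -0.06 ± 0.25 for SLC16A3. Their 95% intervals lay within -0.55 and 0.63. VEGFA (0.16 ± 0.44) and HK2 (0.14 ± 0.34) had wider ones, from -0.70 to 1.02 and from -0.53 to 0.82.

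Genes of the same pathways outside the 45 were counted from lists of further glycolysis and pyruvate genes, HIF regulators and targets, and the pentose phosphate pathway, which branches off glucose-6-phosphate. The shares over all genes were those above, 11.8% higher and 14.2% lower in BRCA2-proficient and 11.6% and 13.8% in BRCA2-deficient cells. Of 22 tested glycolysis and pyruvate genes, 6 rose and 4 fell with GSK3i in BRCA2-proficient cells, and 6 rose and 5 fell in BRCA2-deficient cells. Of 33 tested HIF regulators and targets, 1 rose and 11 fell, and 1 rose and 14 fell, with median log2 fold changes of -0.29 and -0.22. Of 10 pentose phosphate genes, 3 rose and 1 fell, and 2 rose and 1 fell.

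The 2 untreated BRCA2-proficient libraries differed in part of the set. ANGPTL4 had 1306 normalised counts in replicate 3 and 324 in replicate 2, ADM 682 and 212, PFKFB4 1424 and 466, BHLHE40 2639 and 953, SLC2A3 3775 and 1653, and ENO2 2450 and 1088. The ratio was over 1.5 for 13 of the 42 genes, against 9.42% of 16664 genes with a mean of at least 10 counts, and over 2 for 7. Among the abundant enzymes, GAPDH, ENO1, PKM, LDHA, LDHB, PGAM1 and TPI1 had ratios of 0.84 to 0.97, and HIF1A 0.92. The HIF targets BNIP3L (1.05), ERO1A (1.09), PGK1 (1.08) and EGLN3 (0.95) were also near 1. Of 20 genes over 1.2 here, 15 were also over 1.2 in replicate 3 of the GSK3i cells against the mean of replicates 1 and 2, with ratios there of 2.18 for PFKFB4, 1.82 for BHLHE40, 1.73 for PDK1 and 1.69 for ADM. Across the 42 genes the 2 ratios had a Spearman rho of 0.75, given as a description of libraries that share a replicate number. Over all genes with a mean of at least 10 counts a different measure was available. Deviations of the same replicate 3 libraries from their group means had a Pearson r of 0.09. Genes over 1.2 in both were not counted over all genes. Without untreated replicate 3 the GSK3i comparison in BRCA2-proficient cells called 9 genes higher (8.81% of all genes) and 4 lower (7.62%), VEGFA (1.51), ANGPTL4 (1.55), STC1 (0.81) and BHLHE40 (0.82) among those higher. Without replicate 2 it called 4 higher (9.62% of all genes) and 8 lower (8.42%), SLC2A3 (-1.24), ADM (-1.14) and P4HA1 (-0.79) among those lower. GPI, SLC16A1, PFKL, SLC16A3, EPAS1 and BNIP3L were called either way.

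**Figure D4:**
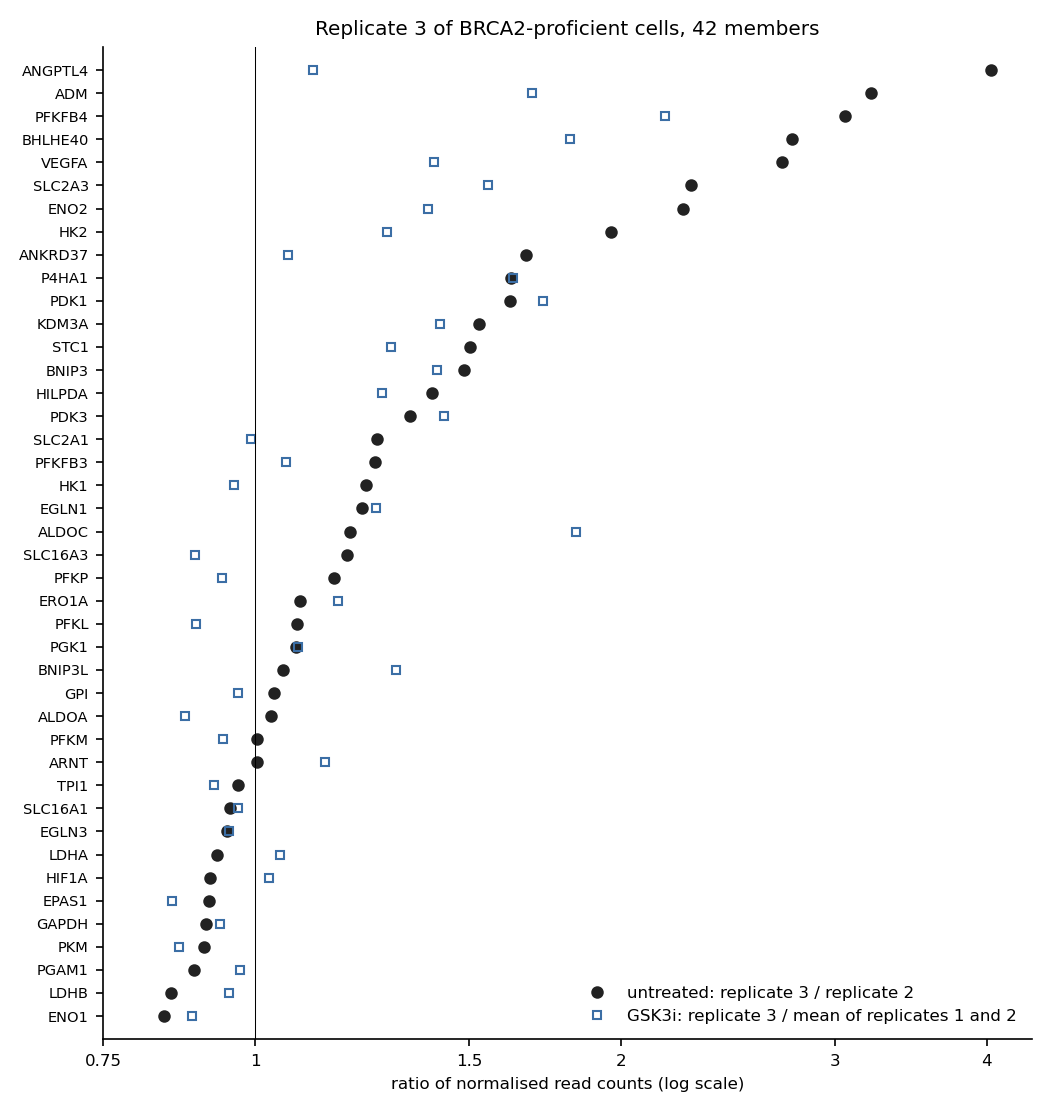
Ratio of normalised read counts (x axis, log scale) of replicate 3 to replicate 2 in untreated BRCA2-proficient cells (filled circles) and of replicate 3 to the mean of replicates 1 and 2 in BRCA2-proficient cells with GSK3i (open squares), for 42 genes ordered by the first ratio. ANGPTL4, ADM and PFKFB4 exceed 3 in untreated cells, while GAPDH, PKM and ENO1 lie below 1.

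BRCA2-deficient were compared with BRCA2-proficient cells, which differed in DOX as well as in BRCA2. In untreated cells 5 genes were lower and none higher: the glucose carriers SLC2A1 (-0.64 ± 0.20, adjusted p = 0.0276, DESeq2) and SLC2A3 (-1.04 ± 0.30, adjusted p = 0.0135, DESeq2), HK2 (-0.85 ± 0.28, adjusted p = 0.0361, DESeq2), PDK1 (-0.92 ± 0.28, adjusted p = 0.0198, DESeq2) and BNIP3 (-0.61 ± 0.21, adjusted p = 0.0478, DESeq2). Of all genes, 4.14% were called lower and 2.77% higher. SLC2A1 had 3017 and 3801 counts in BRCA2-proficient and 1837, 2273 and 2596 in BRCA2-deficient libraries, and HK2 1414 and 2777 against 1018, 1196 and 1327, so the groups did not overlap for either gene. None of the 5 was called by edgeR, where 11 of the 42 genes had an unadjusted p under 0.05 (3401 of all 17157). Without untreated BRCA2-proficient replicate 3, which leaves 1 library, log2 fold changes of the 5 shrank to between -0.54 and -0.29. Without BRCA2-proficient replicate 2, which also leaves 1 library, they lay between -1.52 and -0.80. Without BRCA2-deficient replicate 2 only SLC2A3 of the set was called, with 462 of all 17885 genes. EPAS1 was higher by 0.46 ± 0.21 (adjusted p = 0.176, DESeq2).

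With GSK3i present, BRCA2-deficient cells had lower HK2 (-0.69 ± 0.17, adjusted p = 0.0017, DESeq2), VEGFA (-0.57 ± 0.18, adjusted p = 0.0249, DESeq2) and ANGPTL4 (-0.73 ± 0.24, adjusted p = 0.0282, DESeq2) and higher EPAS1 (0.62 ± 0.17, adjusted p = 0.0064, DESeq2). Of all genes, 3.05% were lower and 3.76% higher. HK2 had 2051 to 2399 counts in BRCA2-deficient cells, below 3027 to 4173 with BRCA2 present, and EPAS1 573 to 716, above 370 to 446, with no overlap for either gene. The HK2 call was kept by edgeR (-0.68, adjusted p = 0.0432) and held in all alternatives run, while HK2 alone was called without GSK3i replicate 3 of the BRCA2-proficient cells or without replicate 2 of the BRCA2-deficient cells. SLC2A1 was at -0.36 ± 0.15 (adjusted p = 0.127, DESeq2).

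Cells given β-catenin siRNA before GSK3i were compared with those given control siRNA before GSK3i. This comparison also holds whatever the siRNA changed without GSK3i, which the interaction below takes into account. EPAS1 was higher with siβ-catenin in both backgrounds. In BRCA2-deficient cells it had 573, 609 and 716 counts with GSK3i and 1002, 1177 and 1416 with GSK3i and siβ-catenin, without overlap (log2 fold change 0.92 ± 0.19, adjusted p = 0.000127, DESeq2). In BRCA2-proficient cells it had 370, 420 and 446 counts with GSK3i and 596, 662 and 1190 with both, the highest in the library labelled replicate 2 (1.01 ± 0.27, adjusted p = 0.00568, DESeq2). Without that library the difference was 0.63 ± 0.16 (adjusted p = 0.00295, DESeq2), and edgeR did not call it with all libraries (adjusted p = 0.105). BNIP3L, which also fell with GSK3i, had 608 to 713 counts with GSK3i and 593 to 740 with both in BRCA2-deficient cells, 0.05 ± 0.16 on the log2 scale (95% interval -0.27 to 0.36).

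Few other genes of the set were called between siβ-catenin and control siRNA under GSK3i. In BRCA2-deficient cells 2 were higher (2.95% of all genes) and 1 lower (2.57% of all genes). ENO2 went from 1567, 1664 and 2047 counts to 2867, 3102 and 3371 (0.82 ± 0.16, adjusted p = 3.12e-05, DESeq2), and HILPDA from 308, 317 and 392 to 185, 186 and 213 (-0.80 ± 0.19, adjusted p = 0.000904, DESeq2). The HILPDA call was lost with edgeR (adjusted p = 0.061) and the ENO2 call in 1 model over all 8 groups (adjusted p = 0.0697, DESeq2). In BRCA2-proficient cells 1 was higher (EPAS1; 3.18% of all genes) and 2 lower (1.92% of all genes), HK2 at -0.68 ± 0.20 (adjusted p = 0.0224, DESeq2) and VEGFA at -0.61 ± 0.19 (adjusted p = 0.0261, DESeq2). Without the library labelled replicate 2 these were -0.51 and -0.52 and still called, and ENO2 was called higher (0.70 ± 0.20, adjusted p = 0.0114, DESeq2). Without GSK3i replicate 3 none of the 42 was called by DESeq2, with 8 at an unadjusted p under 0.05 (2227 of all 16790 genes). With all libraries edgeR called none, with 8 at an unadjusted p under 0.05 (2938 of all 16393 genes). The log2 fold change of SLC16A1 was -0.49 ± 0.16 with BRCA2 and -0.47 ± 0.14 after its depletion, under the size criterion.

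The same libraries with both agents were also compared with siβ-catenin alone, which gives the GSK3i response of β-catenin-depleted cells. In BRCA2-deficient cells GSK3i then raised 9 of the 42 genes (8.56% of all genes) and lowered 3 (11.5% of all genes). All 4 secreted HIF targets were among those higher: VEGFA (818, 912 and 1070 counts to 1551, 1640 and 1844), ADM (203, 218 and 254 to 269, 383 and 547), ANGPTL4 (315, 317 and 415 to 471, 738 and 1005) and STC1 (861, 940 and 1080 to 1892, 1978 and 2267). No library with GSK3i was at or below one without it for these 4 genes. As the 4 were named for passing the test in the same libraries, this is not separate evidence. The share of all genes without overlap was not counted. Their log2 fold changes were 0.85 ± 0.16 (adjusted p = 3.39e-06, DESeq2), 0.83 ± 0.24 (adjusted p = 0.00487, DESeq2), 1.09 ± 0.25 (adjusted p = 0.000241, DESeq2) and 1.09 ± 0.16 (adjusted p = 1.82e-10, DESeq2). ENO2 rose by 1.23 ± 0.17 (adjusted p = 1.47e-11, DESeq2), and SLC2A3, HK2, GPI and BHLHE40 by 0.53 to 0.61. BNIP3L fell by 1.60 ± 0.20 (adjusted p = 4.31e-13, DESeq2), EPAS1 by 0.69 ± 0.20 (adjusted p = 0.00513, DESeq2) and PFKL by 0.65 ± 0.15 (adjusted p = 0.000273, DESeq2). In 1 model over all 8 groups, 4 were higher (7.9% of all genes) and 3 lower (10.7%), SLC2A3, HK2, ADM, ANGPTL4 and BHLHE40 no longer being called. HIF1A was at -0.16 ± 0.19 (95% interval -0.53 to 0.21).

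**Figure D5:**
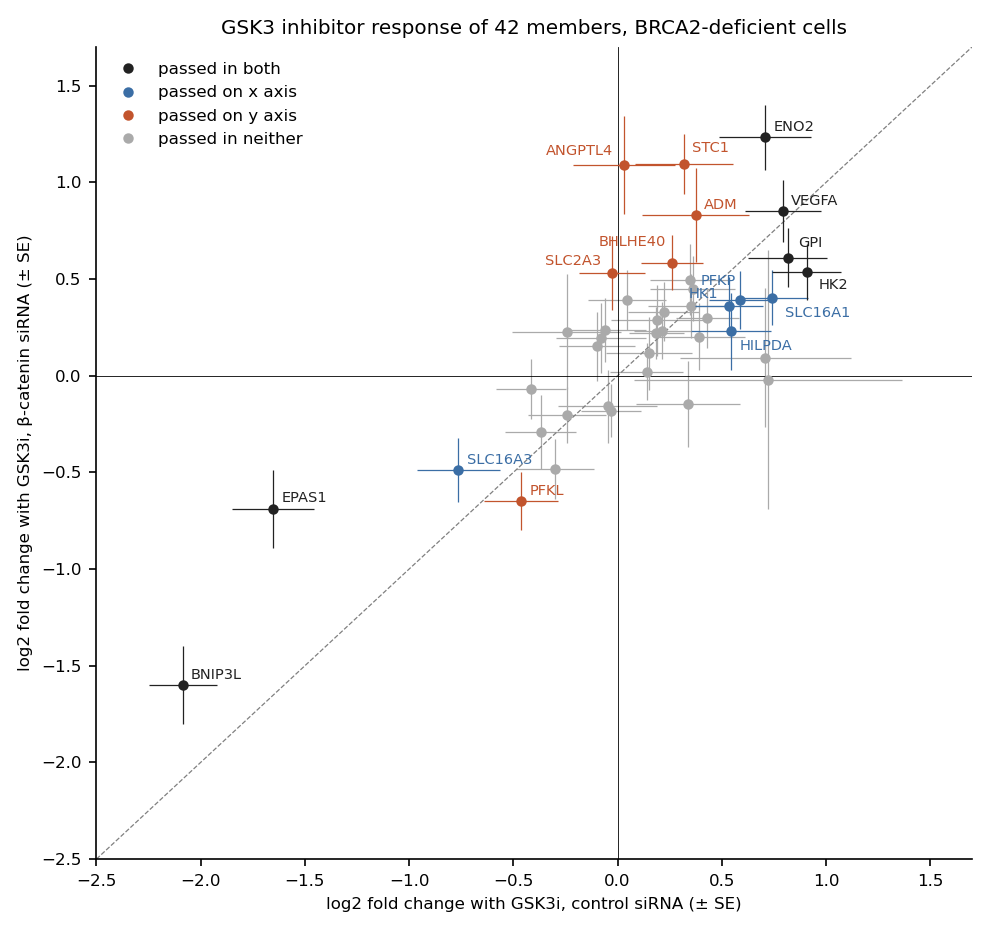
Log2 fold change with GSK3i in BRCA2-deficient cells given control siRNA (x axis) or β-catenin siRNA (y axis) for 42 genes, with standard errors; colours give where the gene passed the test and the dashed line marks equal values. EPAS1 and the group of ANGPTL4, STC1, ADM, SLC2A3 and ENO2 lie above the line.

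The interaction of GSK3i and siβ-catenin tested whether these responses differed between siRNAs in BRCA2-deficient cells. Without a replicate term none of the 42 genes was called by DESeq2 (0.486% of all genes were) or edgeR. At an unadjusted p under 0.05 there were 5 with DESeq2 (994 of all 18117 genes) and 4 with edgeR (999 of all 18117). With the replicate number as a block, 4 were called, all with a higher response under siβ-catenin (0.646% of all genes). The pairing behind this block is uncertain, as some differently numbered libraries also correlated (up to 0.33). The 4 were EPAS1 (0.95 ± 0.19, adjusted p = 6.7e-05, DESeq2), ANGPTL4 (1.06 ± 0.26, adjusted p = 0.00581, DESeq2), SLC2A3 (0.54 ± 0.15, adjusted p = 0.0202, DESeq2) and STC1 (0.75 ± 0.23, adjusted p = 0.0424, DESeq2). Without the block their adjusted p-values were 0.127, 0.371, 0.671 and 0.364 (DESeq2) at nearly the same sizes (0.95, 1.04, 0.54 and 0.76). For VEGFA the difference was 0.05 ± 0.22 and for BNIP3L 0.47 ± 0.27, with 95% intervals of -0.39 to 0.48 and -0.06 to 0.998.

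β-catenin siRNA on its own in BRCA2-deficient cells lowered 3 of 41 genes tested (0.82% of all genes) and raised none (1.21% of all genes). LDHA went from 14101, 16849 and 17857 counts to 9778, 11484 and 12324 (-0.53 ± 0.16, adjusted p = 0.0321, DESeq2), ANGPTL4 from 519, 584 and 614 to 315, 317 and 415 (-0.71 ± 0.18, adjusted p = 0.00939, DESeq2) and STC1 from 1282, 1462 and 2207 to 861, 940 and 1080 (-0.78 ± 0.22, adjusted p = 0.027, DESeq2). The groups did not overlap for any of the 3, which is not separate evidence, as they were named for passing the test in these libraries. edgeR called none of them, and 0 of all 17324 genes. At an unadjusted p under 0.05 edgeR had 13 genes of the set and 2311 of all 17324. None of the 3 was called without untreated replicate 2 (84 of all 17836 genes were) or without siβ-catenin replicate 3 (200 of all 17527). ANGPTL4 and STC1, lowered here, are 2 of the 4 genes with a higher GSK3i response under siβ-catenin, and those comparisons share the siβ-catenin libraries.

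The remaining comparisons rest on the BRCA2-proficient libraries that went against their label and are given as labelled. GSK3i after siβ-catenin called none of the 42 genes and 0.0529% of all genes by DESeq2, with none of the 42 at an unadjusted p under 0.05 (263 of all 17010 genes). Without both replicate 2 libraries, an alternative chosen after seeing the data, 6 were higher (1.62% of all genes) and 1 lower (1.27%). It leaves 1 siβ-catenin library, replicate 3, whose PDCD4 lay between the ranges. This library was assumed to vary like the pair with GSK3i. The filter dropped no gene, so both shares are of all 37908 genes, of which 12525 had an adjusted p. The other shares of called genes are over filtered genes. Both shares here are lower for that reason and are not a background for the 42 genes. Log2 fold changes in this alternative were 1.94 for ANGPTL4, 1.27 for BHLHE40, 1.21 for STC1 and 1.05 for ENO2. They were 0.93 for VEGFA, 0.89 for SLC2A3 and -1.20 for BNIP3L. Other genes are not given for it. siβ-catenin alone called EPAS1 (-0.86 ± 0.19) and SLC16A3 (-0.66 ± 0.18) lower, among 2.97% of all genes called. Without its replicate 2, which leaves 1 siβ-catenin library, EPAS1 was at -0.89 and SLC16A3 at -0.69. The EPAS1 call was lost in 4 of 9 alternatives and the SLC16A3 call in 5 of 9. Neither was called by edgeR (adjusted p = 0.183 and 0.19) or in 1 model over all groups (adjusted p = 0.078 and 0.079, DESeq2). BRCA2 depletion with siβ-catenin called 11 genes, 3 higher and 8 lower, among 27.4% of all genes; EPAS1 had the largest rise (1.28 ± 0.23) and HK2 the largest fall (-1.11 ± 0.25). Without siβ-catenin replicate 2 it called 7 genes, 3 higher and 4 lower, among 18.4% of all genes, with EPAS1 at 1.31 and HK2 at -0.64. BRCA2 depletion with both agents called BNIP3L lower (-1.11 ± 0.34), among 7.74% of all genes, and without the library labelled replicate 2 called EPAS1 higher (0.92 ± 0.20, adjusted p = 0.000122, DESeq2), among 9.18% of all genes, with BNIP3L at -0.47 (adjusted p = 0.0685, DESeq2). The interaction of GSK3i and siβ-catenin in BRCA2-proficient cells called 3 genes, among 7.63% of all genes.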

How the data were processed

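RNA was sequenced from 22 poly(A) libraries of H1299 cells in 8 groups. The deposited values were whole-number read counts per Ensembl gene, which the authors made with HISAT2 2.0.4 (hg19), SAMtools 1.4, removal of duplicates with Picard 1.9.2 and featureCounts 1.5.0 on uniquely mapped reads. These versions are from the submitters' processing notes; the study's reporting summary lists other versions of HISAT2, Picard and featureCounts, and which were used is not settled here. The strand setting and the Ensembl release are not given in the sources used here. Removing duplicates can lower the counts of abundant transcripts such as GAPDH. Totals were 18.9 to 29.3 M counts per library, and intervals cover counting error only where they concern a count of 0. Gene symbols were matched for 29629 of 37908 identifiers; the other 8279 held 1.023% of counts.

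Each comparison was fitted on its own groups in DESeq2 1.42.0 (R 4.3.3; Wald test, unshrunken log2 fold changes, Benjamini-Hochberg over all genes tested), leaving out genes with under 10 counts in more than 3 libraries; for interactions a gene had to reach 10 counts in 3 or more libraries. Calls needed an adjusted p under 0.05 and an absolute log2 value over 0.5. Normalised read counts were scaled by size factors that DESeq2 estimated from the 22 libraries together. Alternatives were edgeR 4.0.16 (quasi-likelihood, TMM), TMM factors in DESeq2, no filter, the replicate number as a block, 1 model over all groups and each library left out; leaving out both libraries that went against their label was added after seeing the data. No pair of replicates agreed within sampling noise (chi-square per gene of 10.78 to 64.38 over 20 pairs).

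Deviations from the group means of same-numbered libraries correlated at over 0.1 in all 3 pairs in each comparison with 3 pairs (0.11 to 0.73). Every main fit was nonetheless without a replicate term, and the block was run only as an alternative. By these correlations the numbers were taken to pair those libraries, and comparisons with 2 pairs (-0.38 to 0.20) were not taken as paired. Differently numbered libraries were not part of this rule. They reached 0.31 for GSK3i in BRCA2-deficient cells, where the lowest same-numbered value was 0.22. For BRCA2 depletion under GSK3i they reached 0.25 against 0.11, so the pairing is uncertain. The members and lists were chosen with earlier results of these data known. Values per library were given for SLC2A1, HK2, GAPDH, PGK1, LDHA, HIF1A and VEGFA in any case. In each role they were also given for genes called in the same direction with GSK3i in both backgrounds. Such genes were ranked by the absolute log2 fold change averaged over both backgrounds, and were GPI, SLC16A1, SLC16A3, EPAS1 and BNIP3L besides HK2. As these genes were chosen by passing the test, the lack of overlap between their GSK3i and untreated groups is not separate evidence. Values per library of other genes (ENO2, HILPDA, ADM, ANGPTL4 and STC1) were added after their results were seen. Where a gene was called in any other comparison, lack of overlap between its groups there is not separate evidence either. Gene coordinates are on GRCh37, and promoters are from RefSeq on GRCh38.p14. The markers PECAM1 and HBB were not analysed here.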

Additional observations from a re-analysis of the deposited data

Results flagged for a closer look

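In BRCA2-proficient cells the response to GSK3i differed between siβ-catenin and control siRNA for 3 genes by the interaction term (DESeq2, siβ-catenin minus control siRNA). SLC16A1 had a difference of -1.07 ± 0.25 (SE; adjusted p = 0.00322), EPAS1 of 1.87 ± 0.38 (adjusted p = 0.000291) and SLC16A3 of 0.9996 ± 0.28 (adjusted p = 0.0123). All 3 rest on the replicate 2 libraries labelled siβ-catenin and GSK3i with siβ-catenin, whose PDCD4, YPEL2 and ABTB1 counts went against their GSK3i label. Without both libraries the differences were -0.72 for SLC16A1, 1.53 for EPAS1 and 0.82 for SLC16A3 (DESeq2). This leaves 1 siβ-catenin library, replicate 3, which is assumed to vary like the other groups. Its PDCD4 count of 1056 lay between the ranges with GSK3i (105 to 163) and without it (1291 to 1920). Its YPEL2 and ABTB1 counts lay between the ranges too, and the effect of this on the differences was not tested. The SLC16A1 call was lost in 3 of 16 alternatives, the SLC16A3 call in 4 and the EPAS1 call in 1. edgeR called none of the 42 genes and 4 of all 17093. At an unadjusted p under 0.05 it had 7 of the 42 and 3992 of all 17093.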

How the results depend on the processing

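With edgeR the count of called genes went from 3 to 0 for siβ-catenin under GSK3i (BRCA2-proficient; 8 at an unadjusted p under 0.05), from 5 to 0 for BRCA2 depletion in untreated cells (11), from 2 to 0 and from 3 to 0 (13) for siβ-catenin alone in BRCA2-proficient and BRCA2-deficient cells, from 4 to 1 for BRCA2 depletion under GSK3i, from 1 to 0 for BRCA2 depletion with both agents (3) and from 3 to 0 for the BRCA2-proficient interaction of GSK3i and siβ-catenin (7). In 1 model over all groups the count of called genes went from 12 to 7 for GSK3i after siβ-catenin in BRCA2-deficient cells (3534 to 3281 over all genes). For siβ-catenin alone it went from 3 to 0 in BRCA2-deficient cells (351 to 319). For siβ-catenin alone in BRCA2-proficient cells it went from 2 to 1 (524 to 271), which was neither EPAS1 nor SLC16A3. It went from 4 to 1 for BRCA2 depletion under GSK3i (1112 to 1017) and from 3 to 5 for the BRCA2-proficient interaction (1305 to 2151). With the replicate block it went from 11 to 4 for BRCA2 depletion with siβ-catenin (4888 to 2020 over all genes). It went from 1 to 3 for BRCA2 depletion with both agents (1319 to 1485) and from 0 to 4 for the BRCA2-deficient interaction (88 to 335). In the GSK3i comparison of BRCA2-proficient cells the block kept 10 calls (4372 to 3260 over all genes), losing EGLN3 and KDM3A and adding SLC2A3 (-0.58) and STC1 (0.55). For BRCA2 depletion in untreated cells it kept 5 calls (1185 to 834 over all genes), losing SLC2A3 and PDK1 and adding ENO2 (-0.82) and EPAS1 (0.60). For siβ-catenin alone in BRCA2-proficient cells it kept 2 calls (524 to 189 over all genes), losing SLC16A3 and adding BNIP3L (-1.21). The block changed no call among the 42 genes for GSK3i in BRCA2-deficient cells, siβ-catenin under GSK3i in either background, GSK3i after siβ-catenin or siβ-catenin alone in BRCA2-deficient cells, or BRCA2 depletion under GSK3i.

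Leaving out 1 library at a time gave 0 to 4 calls for siβ-catenin under GSK3i (BRCA2-proficient), 0 to 9 for BRCA2 depletion in untreated cells, 0 to 7 and 0 to 4 for siβ-catenin alone, 1 to 5 for BRCA2 depletion under GSK3i, 7 to 19 with siβ-catenin and 0 to 1 with both agents, 0 to 1 for the BRCA2-deficient and 1 to 7 for the BRCA2-proficient interaction, 8 to 13 and 8 to 12 for GSK3i in BRCA2-proficient and BRCA2-deficient cells, and 10 to 14 for GSK3i after siβ-catenin (BRCA2-deficient). Without both libraries that went against their label, which leaves 1 siβ-catenin library, VEGFA turned to 0.93 with GSK3i after siβ-catenin in BRCA2-proficient cells. BHLHE40 with GSK3i in BRCA2-proficient cells ranged from -0.64 without untreated replicate 2 to 0.82 without untreated replicate 3. The cause of these changes was not tested. With 2 or 3 libraries a group, and 2 untreated BRCA2-proficient libraries that differed in 13 of the 42 genes by over 1.5 times, differences in those genes were poorly determined; CA9, CA12 and NDRG1 were too low to test.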
